A study of Homo sapiens with 4 samples.

Results

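Contacts of chromatin that were seen in only one genotype were examined in A673 cells, an established line of Ewing sarcoma in which EWSR1 is fused to FLI1. SMC1 HiChIP was available from 2 STAG2-null libraries, made from Cas9-edited clones that each grew from a single cell, and from 2 wild-type libraries. Both groups are unsorted A673 cells without a stated treatment. The labels do not say whether the STAG2-null libraries are separate clones, or the libraries of a genotype separate cultures, so the spread between libraries may be technical. Each contact is a pair of DNA anchors with a count of paired-end tags (PETs), the ligated read pairs that join them. The contacts described here were selected on these PETs, with 3 or more in both libraries of one genotype and 0 in both of the other. Of 1125468 anchor pairs with a PET in any library, 581 met this rule. A total of 238 were seen in STAG2-null libraries only and 343 in wild-type libraries only. The same values chose the contacts and describe them, so no test is given.

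Cohesin is a ring of SMC1, SMC3 and RAD21 that holds one of the alternative subunits STAG1 or STAG2. It extrudes chromatin loops, which commonly stop at sites bound by CTCF, and it joins promoters to distant enhancers. STAG2 is often mutated in Ewing sarcoma, where EWS-FLI1, the fusion protein with the DNA-binding domain of the ETS factor FLI1, binds repeats of GGAA and makes enhancers of them. An SMC1 contact is a measure of proximity at cohesin-bound DNA and gives no transcript level.

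Contacts with 12 or more PETs lay at the promoter anchors of MEIS1, KLF16 with REXO1, TIMP2 and SEPN1 in STAG2-null libraries and of CRB2 in wild-type libraries. The RefSeq promoters of MEIS1, SEPN1 and CRB2 are printed, from 250 bases before to 50 bases after the annotated start. The authors' deposited table places a promoter of each gene at an anchor of a contact seen in one genotype. Windows were matched by gene symbol on GRCh38.p14 and were not checked against the hg19 anchors. A printed window may therefore lie outside its anchor. MEIS1 encodes a homeobox partner of HOX proteins, SEPN1 (now SELENON) a selenoprotein of the endoplasmic reticulum, and CRB2 a polarity protein of the Crumbs complex. Capitals would mark the GGAA repeat GGAAGGAA or the core CCACNAGG of the CTCF motif, searched on both strands, and none of these 3 windows holds either.
MEIS1: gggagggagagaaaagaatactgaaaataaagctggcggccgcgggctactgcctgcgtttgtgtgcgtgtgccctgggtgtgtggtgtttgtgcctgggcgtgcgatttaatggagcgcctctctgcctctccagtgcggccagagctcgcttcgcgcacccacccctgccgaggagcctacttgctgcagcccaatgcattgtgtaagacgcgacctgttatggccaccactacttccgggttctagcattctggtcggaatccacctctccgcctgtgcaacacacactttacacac
SEPN1: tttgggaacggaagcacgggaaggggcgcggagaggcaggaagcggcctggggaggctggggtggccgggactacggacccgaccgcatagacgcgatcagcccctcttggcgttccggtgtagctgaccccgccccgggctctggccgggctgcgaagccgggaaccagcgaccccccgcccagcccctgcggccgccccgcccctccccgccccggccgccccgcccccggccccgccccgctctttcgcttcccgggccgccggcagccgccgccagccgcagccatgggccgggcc
CRB2: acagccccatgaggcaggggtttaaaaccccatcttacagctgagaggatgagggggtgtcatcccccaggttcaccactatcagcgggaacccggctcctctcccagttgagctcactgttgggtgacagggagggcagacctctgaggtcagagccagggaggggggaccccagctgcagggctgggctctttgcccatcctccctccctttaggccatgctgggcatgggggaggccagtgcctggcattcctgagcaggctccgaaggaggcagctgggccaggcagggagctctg
On GRCh38.p14 these windows are chr2:66434875-66435174 (plus strand), chr1:25799943-25800242 (plus strand) and chr9:123368529-123368828 (plus strand). They hold 58.3%, 78.7% and 63.7% of G and C bases and 18, 38 and 3 CG pairs, against medians of 58.7% and 14 over 35116 promoters.

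At anchors of these contacts 43 genes are named in the authors' deposited table of loops that differ, of which 32 matched a RefSeq promoter. Of those 32 windows 3 held a motif, in capitals, and they are shown because they are the matches.
TMEM87B: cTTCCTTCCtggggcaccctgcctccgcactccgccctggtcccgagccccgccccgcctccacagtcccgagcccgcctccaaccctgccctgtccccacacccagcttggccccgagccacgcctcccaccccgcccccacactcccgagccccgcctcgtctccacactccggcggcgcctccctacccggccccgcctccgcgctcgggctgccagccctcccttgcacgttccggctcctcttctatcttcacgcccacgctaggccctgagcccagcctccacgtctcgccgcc
PTGER1: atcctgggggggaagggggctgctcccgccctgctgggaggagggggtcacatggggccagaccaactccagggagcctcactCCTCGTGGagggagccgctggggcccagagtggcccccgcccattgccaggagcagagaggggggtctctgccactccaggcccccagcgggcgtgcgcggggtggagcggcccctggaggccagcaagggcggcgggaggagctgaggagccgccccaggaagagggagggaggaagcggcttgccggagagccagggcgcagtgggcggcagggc
FBXW5: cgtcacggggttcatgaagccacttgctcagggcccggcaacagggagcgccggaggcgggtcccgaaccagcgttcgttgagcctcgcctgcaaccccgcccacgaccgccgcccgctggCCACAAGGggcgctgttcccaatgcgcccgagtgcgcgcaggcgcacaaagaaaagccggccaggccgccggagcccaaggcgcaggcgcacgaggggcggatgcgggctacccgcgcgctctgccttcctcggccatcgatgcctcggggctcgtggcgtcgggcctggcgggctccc
TMEM87B, a gene for a Golgi membrane protein, holds GGAAGGAA on the opposite strand. PTGER1, a prostaglandin E2 receptor gene, holds CCACNAGG on the opposite strand, and FBXW5, a gene for an F-box protein, holds it on the plus strand of the window. The windows are chr2:112055019-112055318, chr19:14475305-14475604 and chr9:136944689-136944988 on GRCh38.p14. By direction, GGAAGGAA stood in 1 of 13 promoters of genes placed at STAG2-null contacts and 0 of 21 of genes placed at wild-type contacts. CCACNAGG stood in 1 of 13 and 1 of 21. Over all 35116 promoters the shares were 3.67% and 4.93%. An anchor is kilobases wide, so a window covers a small part of it at most.

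The 4 libraries held between 661881 and 765017 PETs, and between 73.3% and 74.7% of the pairs of a library rested on 1 PET. The STAG2-null libraries held 1380726 PETs together and the wild-type libraries 1426898. A pair needs at least 6 PETs to meet the rule, and 88219 pairs had that many. The 238 contacts of STAG2-null libraries are 0.27% of these and the 343 of wild-type libraries 0.389%. There were thus 1.44 times as many contacts in the wild-type direction. This ratio was 3.63 with PETs scaled to the smallest library and 0.615 with a minimum of 5 PETs. With that scaling the 41 STAG2-null contacts lay below the mean mixed side of 43.75 and the 149 wild-type contacts above it. A count at the minimum in a deeper library then falls below it, so the scaled values do not compare the directions.

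The number of such contacts was larger when libraries were grouped by genotype than when a library of each genotype was put on each side. STAG2-null 1 with wild-type 1 gave 146 pairs (0.165%) and STAG2-null 2 with wild-type 2 gave 274 (0.311%), a sum of 420. STAG2-null 1 with wild-type 2 gave 223 (0.253%) and STAG2-null 2 with wild-type 1 gave 171 (0.194%), a sum of 394. The genotype sum of 581 was 1.38 and 1.48 times these sums. The mean of a mixed side was 203.5, so a mixed side held most of the number found in a genotype. The 238 contacts of STAG2-null libraries lie inside the mixed range of 146 to 274, and the 343 of wild-type libraries lie above it. The mixed side with both deeper libraries, which holds wild-type 2, had the most pairs of the 4.

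**Figure D1:**
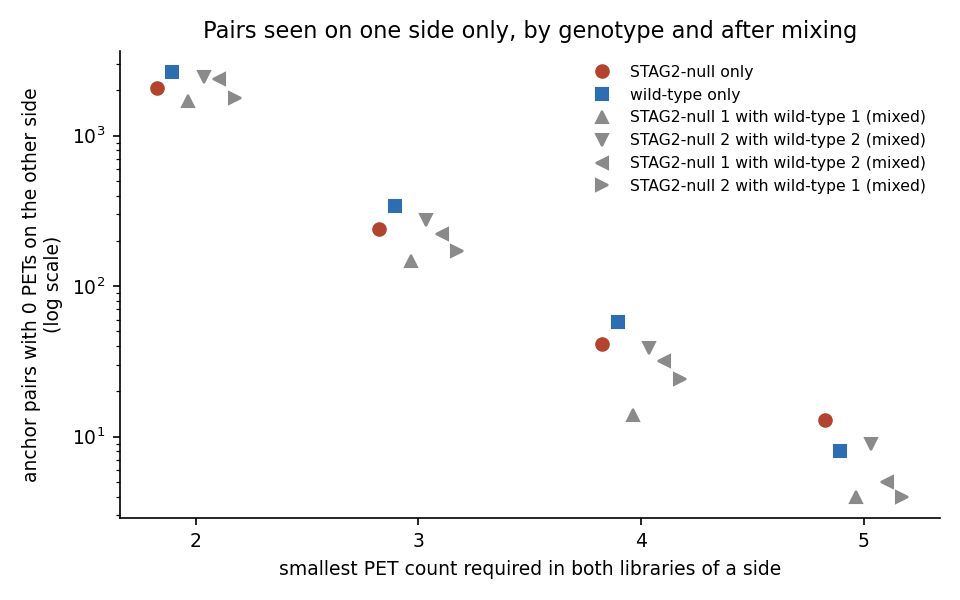
Number of anchor pairs (log axis) with at least the stated number of PETs in both libraries of a side and 0 on the other side, for the 2 genotypes (coloured) and the 4 mixed sides (grey). At a minimum of 3 PETs the genotypes gave 238 and 343 pairs and the mixed sides 146 to 274.

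The mean number per genotype was 1.14, 1.43, 1.82 and 1.91 times the mean mixed side at minimums of 2, 3, 4 and 5 PETs. With 2 PETs in both libraries the genotypes gave 2078 and 2648 pairs, a sum of 4726, against 4144 and 4147 for the mixes. With 4 PETs they gave 41 and 58, a sum of 99 against 53 and 56. With 5 PETs they gave 13 and 8, a sum of 21 against 13 and 9. The direction with more contacts turned at this last step, where STAG2-null libraries held the larger number.

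Most of the contacts stood at the edge of the rule. The smaller library held exactly 3 PETs in 197 of the 238 STAG2-null contacts (82.8%) and in 285 of the 343 wild-type contacts (83.1%). Both libraries held 3 PETs in 97 (40.8%) and 144 (42.0%), beside 371 of the 814 mixed pairs (45.6%). Just outside the rule, 814 pairs of STAG2-null and 953 of wild-type libraries missed it by 1 PET in the smaller library. A further 695 and 752 had a single PET in the other genotype. Contacts with 10 or more PETs numbered 25 in STAG2-null libraries (10.5%), 24 in wild-type libraries (6.997%) and 50 on the mixed sides (6.14%). The highest sums were 20, 14 and 14 PETs. Because the other genotype is at 0, a fold is given over a floor of 3 PETs for both of its libraries. The contacts were selected on these PETs and their own counts are taken as exact, so the fold is no lower bound. Mixed pairs meet the same rule with a library of each genotype on each side. These folds ran from 2.07 to 6.89 for STAG2-null contacts (median 2.41) and from 1.94 to 4.52 for wild-type contacts (median 2.26).

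Among contacts seen in STAG2-null libraries only, the largest joined the MEIS1 promoter to an anchor 684 kb away. It held 5 PETs in STAG2-null 1 and 15 in STAG2-null 2, with 0 in both wild-type libraries (6.89-fold over the floor). Of its 20 PETs, 15 came from STAG2-null 2. The contact joins chr2:65973405-65977942, which the authors' deposited table flags for FLI1 and H3K27ac, the acetylation mark of active enhancers, with chr2:66650942-66668791 (hg19). All other pairs of the MEIS1 anchor held 109 and 132 PETs in STAG2-null libraries and 72 and 95 in wild-type libraries. These counts do not overlap, but they are not scaled to depth. How often that holds over all anchors was not counted, so it is no trait of MEIS1.

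The next contact spanned 495 kb on chromosome 7. It held 9 and 6 PETs in STAG2-null 1 and 2 and 0 in wild-type libraries (5.17-fold over the floor). The authors' deposited table lists CDK14, a cyclin-dependent kinase gene, for this loop and flags both anchors for CTCF, FLI1 and H3K27ac. Other pairs of its anchors held 226 and 287 PETs against 157 and 158. A 41.0-kb contact held 7 and 7 PETs (4.82-fold over the floor). It came from the anchor with the starts of KLF16, a zinc finger repressor gene, and REXO1, an exonuclease gene. It was the contact with the most PETs in its smaller library. A 51.9-kb contact for which the authors' deposited table lists KMT2E, a gene of the MLL family, held 4 and 8 PETs.

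TIMP2, an inhibitor of matrix metalloproteinases, had a 128-kb contact with 8 and 5 PETs in STAG2-null libraries (4.48-fold over the floor). SEPN1 had 2 such contacts from the same anchor on opposite sides. The 190-kb contact toward lower coordinates held 5 and 7 PETs, and the 21.4-kb contact toward higher coordinates held 6 and 5. Other pairs of the SEPN1 anchor held 39 and 43 PETs in STAG2-null libraries, counted beside the longer contact, and 29 and 26 in wild-type libraries. The STAG2-null counts include the 6 and 5 PETs of the shorter contact, which the rule selected. With or without those the values do not overlap, with the same limit as at MEIS1. The contact of ARFGEF2, an exchange factor gene of vesicle transport, with an anchor 238 kb away held 5 and 6 PETs. At the anchor with CYP27B1, which activates vitamin D, METTL1, a tRNA methyltransferase gene, METTL21B and RP11-571M6.15, a 136-kb contact also held 5 and 6.

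Of the 10 contacts with the most PETs in STAG2-null libraries, 3 were under 20 kb and had no listed gene. An 11.04-kb pair on chromosome 7 held 5 and 8 PETs, a 14.4-kb pair on chromosome 1 held 5 and 7, and a 6.50-kb pair on chromosome 13 held 9 and 3. The last stood alone: all other pairs of its anchors held 1, 2, 3 and 3 PETs in STAG2-null 1 and 2 and wild-type 1 and 2.

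**Figure D2:**
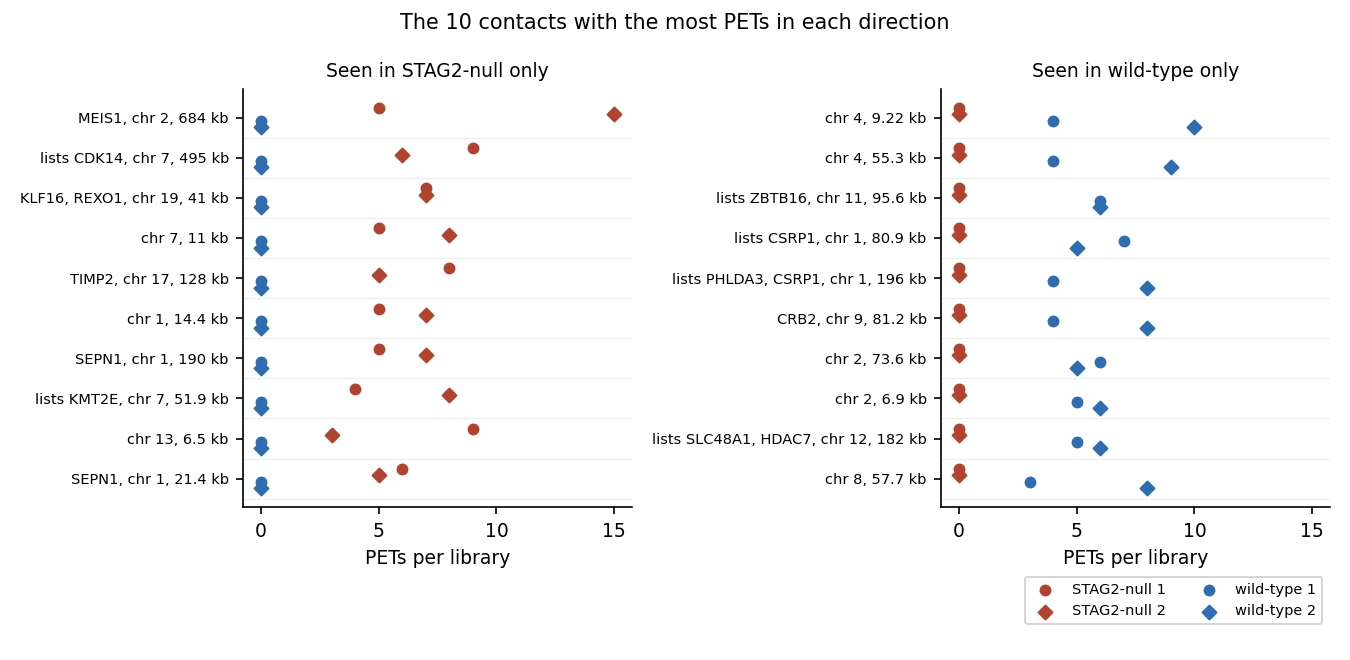
PETs per library for the 10 contacts with the most PETs in each direction, labelled by a gene with its start at an anchor, by up to 2 genes that the authors' deposited table lists for the loop, or by chromosome alone, and by length. STAG2-null libraries are red, wild-type libraries blue; the other genotype is at 0 by the rule, and MEIS1 in STAG2-null 2 is highest at 15 PETs.

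Among contacts seen in wild-type libraries only, the one with the most PETs spanned 9.22 kb on chromosome 4. It held 4 PETs in wild-type 1 and 10 in wild-type 2 (4.52-fold over the floor), and 10 of its 14 PETs came from wild-type 2. A 55.3-kb pair on the same chromosome held 4 and 9. A 95.6-kb contact for which the authors' deposited table lists ZBTB16, the zinc finger gene also called PLZF, held 6 and 6 PETs (3.87-fold over the floor). It was the wild-type contact with the highest count in its smaller library. The first of its anchors was flagged for CTCF, FLI1 and H3K27ac.

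CSRP1, a LIM domain gene, was listed by the authors' deposited table for 2 wild-type contacts on chromosome 1. The 80.9-kb contact held 7 and 5 PETs. The 196-kb contact, for which PHLDA3, a p53 target, and NAV1 are listed too, held 4 and 8. CRB2 had an 81.2-kb contact with an anchor flagged as a promoter, with 4 and 8 PETs, and the authors' deposited table names STRBP beside it. The other pairs of the CRB2 anchor held 183 and 216 PETs in STAG2-null libraries and 272 and 274 in wild-type libraries, again with that limit. CRB2 lies on chromosome 9, which held 7.83% and 7.23% of all PETs in STAG2-null libraries and 9.30% and 9.28% in wild-type libraries. A 182-kb contact between 2 promoter anchors on chromosome 12 held 5 and 6 PETs. The authors' deposited table names the starts of TMEM106C, RAPGEF3 and AC004466.1 for it. VDR, the vitamin D receptor gene, and HDAC7 are among the genes listed for this loop, but not among those starts. The others of the first 10 were pairs of 73.6 kb (6 and 5 PETs) and 6.90 kb (5 and 6 PETs) on chromosome 2 and of 57.7 kb on chromosome 8 (3 and 8 PETs).

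Contacts with a named gene at an anchor were 18 in each direction, with 20 genes in STAG2-null libraries and 26 in wild-type libraries. The names come from the authors' deposited differential loops, a table that was itself chosen on these libraries. It names 405 genes, of which 251 could be placed at 198 anchors, so most of the 79850 anchors carry no name here. The median length of contacts with a gene was 222 kb in the STAG2-null direction and 99.8 kb in the wild-type direction. Over all contacts the order was the opposite, at 55.6 and 63.0 kb, so the named contacts are no sample of the rest.

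Several named contacts of STAG2-null libraries were long. NR2F2, a nuclear receptor gene that EWS-FLI1 is known to repress, had 2 STAG2-null contacts. The 1307-kb contact held 5 and 4 PETs and the 897-kb contact 3 and 3. Other pairs of its anchor, counted beside the longer contact, held 97 and 103 PETs in STAG2-null libraries and 72 and 96 in wild-type libraries. The STAG2-null counts include the 3 and 3 PETs of the 897-kb contact, which the rule selected. Without those the genotypes overlap. DLX5, a homeobox gene of bone and neural crest, had a 1303-kb contact with 4 and 3 PETs. HES1, a Notch target and repressor of differentiation, had a 210-kb contact with 3 and 3 PETs, the fewest the rule allows. Other pairs of the HES1 anchor held 124 and 153 PETs against 87 and 88. ROR1, a receptor for Wnt5a, had a 361-kb contact with 5 and 4.

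SMAD7, an inhibitor of TGF-beta signalling, had a 233-kb contact with 4 and 4 PETs in STAG2-null libraries. Its anchor is busy, and its other pairs held 446 and 454 PETs against 445 and 516, which overlap. PEAR1, a platelet receptor gene, had a 611-kb contact with 5 and 3 PETs while the other pairs of its anchor were lower in STAG2-null libraries, at 146 and 123 PETs against 161 and 200. SIRT4, a mitochondrial sirtuin gene, had a 37.2-kb contact with 6 and 3. UFSP1, a gene of the UFM1 protease family, had 3 and 4 PETs, and TMEM87B and PTGER1 had 3 and 3.

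On the wild-type side, MSX1, a neural crest homeobox gene, had a 97.3-kb contact with 5 and 4 PETs. Its anchor held 33 and 16 PETs in other pairs of STAG2-null libraries and 47 and 40 in wild-type libraries, a log2 ratio of -0.79. MSX1 lies on chromosome 4, which held 2.32% and 2.41% of all PETs in STAG2-null libraries and 2.99% and 3.07% in wild-type libraries. RXRA, which encodes a nuclear receptor that dimerises with many others, had contacts of 365 kb (4 and 4 PETs) and 451 kb (4 and 3 PETs) on opposite sides of a 42.7-kb anchor. Other pairs of the RXRA anchor held 399 and 263 PETs against 500 and 594, counted beside the 365-kb contact and with the 451-kb contact included. The window from 137 to 138 Mb of chromosome 9, where this anchor lies, held 3456 and 2796 PETs against 4353 and 5060. Whether the MSX1 and RXRA anchors differ from their surroundings was not tested. ADRA1D, an adrenergic receptor gene, had contacts of 91.9 kb and 135 kb on opposite sides, each with 3 and 5 PETs. TSKU, a gene for a secreted proteoglycan, had contacts of 36.4 kb with 4 and 4 PETs and of 24.9 kb with 3 and 3.

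CDC20, the activator of the anaphase-promoting complex, shares an anchor with ELOVL1, a fatty acid elongase gene, and their 68.4-kb contact held 4 and 6 PETs in wild-type libraries. CRIP1 and CRIP2, genes of small LIM proteins, share an anchor with C14orf80 and held 5 and 4 PETs at 59.6 kb. LAMTOR2, a lysosomal scaffold gene of mTORC1 signalling, and UBQLN4 held 4 and 4. At that anchor the other pairs held 202 and 232 PETs in STAG2-null and 189 and 210 in wild-type libraries, which overlap. The remaining named contacts of the wild-type direction held 6 to 8 PETs. They lay at CARD9 and DNLZ, at CAPG and SH2D6, at FBXW5, C8G and LCN12, at UBAC1 and at NRARP, a feedback inhibitor of Notch.

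A set of 7 anchors took part in contacts of both directions. TIMP2 joined an anchor at lower coordinates over 128 kb with 8 and 5 PETs in STAG2-null libraries alone, and one at higher coordinates over 34.6 kb with 4 and 3 PETs in wild-type libraries alone. Without either contact, all other pairs of the TIMP2 anchor held 51 and 58 PETs in STAG2-null and 58 and 56 in wild-type libraries, which overlap. The anchor of KLF16 and REXO1 joined higher coordinates over 41.0 kb with 7 and 7 PETs in STAG2-null libraries, and lower coordinates over 602 kb, to the anchor of CIRBP and MIDN, with 3 and 4 PETs in wild-type libraries. CIRBP encodes a cold-inducible RNA-binding protein and MIDN encodes midnolin. On chromosome 9 an anchor flagged for CTCF at 90287866 to 90295082 joined lower coordinates over 275 kb with 3 and 4 PETs in STAG2-null libraries and over 339 kb with 5 and 3 PETs in wild-type libraries. The other 4 had no gene placed, and each of their contacts held 3 or 4 PETs in a library. Contacts of a direction rarely shared an anchor: the 238 used 471 anchors and 5 of them more than once, and the 343 used 675 and 11.

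Of the gene lists compared, few members could be placed, and over all 251 placed genes 20 had a contact of STAG2-null libraries only and 26 of wild-type libraries only. These counts are too small to set a list apart. Of 28 genes that EWS-FLI1 is known to activate, 5 were placed and 1, HES1, had a contact of STAG2-null libraries only. Of 18 that it represses, 1 was placed and that was NR2F2. Of 45 HOX genes and partners, 8 were placed and MEIS1 had such a contact. Of 24 genes of the neural crest and development, 4 were placed, with DLX5 in STAG2-null and MSX1 and RXRA in wild-type libraries. None of 16 cohesin and CTCF genes was named.

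Medians of length were close, and the shape of the distribution was not. The median was 55.6 kb in the STAG2-null direction (95% order-statistic interval 41.6 to 77.5) and 63.0 kb in the wild-type direction (51.2 to 74.0). It was 52.6 kb for the mixed pairs and 53.4 kb for all pairs with 6 to 9 PETs. Contacts of 500 kb or more numbered 17 in STAG2-null libraries, 7.14% with a 95% Wilson interval of 4.51 to 11.1. In wild-type libraries they numbered 5, 1.46% with an interval of 0.624 to 3.37. The mixed pairs held 39 (4.79%), and the 4 mixed sides ran from 2.92% to 6.57%, below the STAG2-null and above the wild-type share. The interval of the highest mixed side, 4.20 to 10.1, holds the STAG2-null share, and the interval of the lowest, 1.26 to 6.66, holds the wild-type share. Contacts of 50 to 200 kb made up 27.3% of the STAG2-null and 41.4% of the wild-type direction, beside 29.7% of the mixed pairs. In that class the 4 mixed sides ran from 25.2% to 34.5%, and all pairs with 6 to 9 PETs held 33.4%. The STAG2-null share lay inside the mixed range and the wild-type share above it. The interval of the highest mixed side, 28.6 to 41.0, overlaps the wild-type interval of 36.3 to 46.7. Intervals cover counting error only, and contacts of a region are not independent.

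**Figure D3:**
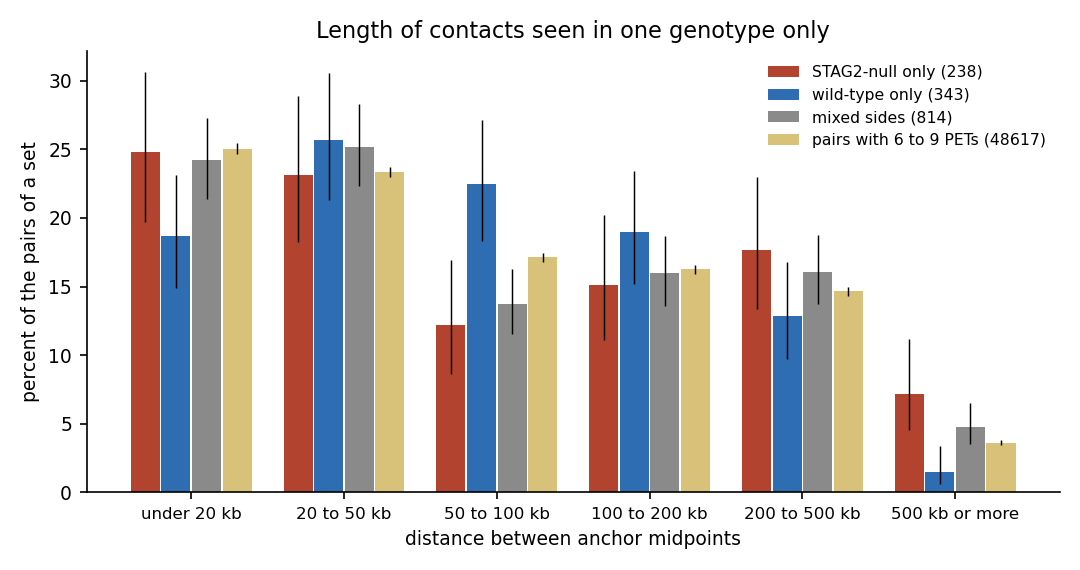
Percent of the pairs of each set in 6 classes of distance between anchor midpoints, with 95% Wilson intervals as lines. Wild-type contacts peak at 20 to 100 kb, and the class of 500 kb or more holds 7.14% of STAG2-null and 1.46% of wild-type contacts.

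The 17 longest STAG2-null contacts lay on 12 chromosomes and held 6 to 20 PETs each, and 5 of them had a placed gene: MEIS1, NR2F2 with 2 contacts, DLX5 and PEAR1. The longest spanned 1397 kb on chromosome 17. The 5 long wild-type contacts held 6 or 7 PETs, and the only one with placed genes was that between CIRBP and MIDN and KLF16 and REXO1. Beside these, the share of all PETs in pairs of 500 kb or more was 18.6% and 17.9% in STAG2-null libraries and 17.0% and 17.5% in wild-type libraries. The share at 50 to 100 kb was 11.99% and 11.8% against 13.2% and 13.1%. The part of these library-wide shares in the lengths of the contacts was not tested.

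In numbers of contacts the directions differed most on chromosomes 7 and 9. Chromosome 7 held 43 STAG2-null contacts (18.1%) and 11 wild-type contacts (3.21%), and 81 of the 814 mixed pairs (9.95%). Chromosome 9 held 10 (4.20%) and 52 (15.2%), and 76 mixed pairs (9.34%). From 120 Mb of chromosome 9 onward there were 1 and 45, beside 45 mixed pairs (a mean of 11.25 per mixed side). Chromosomes 2, 4 and 20 leaned to wild-type libraries with 9 and 33, 2 and 19, and 6 and 24. All mixed sides together held 48, 29 and 34 pairs there. These chromosomes held 6.16%, 2.40% and 4.92% of all pairs with 6 or more PETs. As a ratio of contacts the most uneven was chromosome 4, with a log2 value of -2.96 against 1.92 for chromosome 7 and -2.32 for chromosome 9. Chromosomes 16, 10 and 18 leaned to STAG2-null libraries with 10 and 3, 8 and 3, and 7 and 1, which are small counts. All mixed sides together held 18, 11 and 13 pairs there, and the shares of all pairs with 6 or more PETs were 2.58%, 1.57% and 2.21%. Chromosome 1, with the most pairs of 6 or more PETs, was even at 37 and 36.

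**Figure D4:**
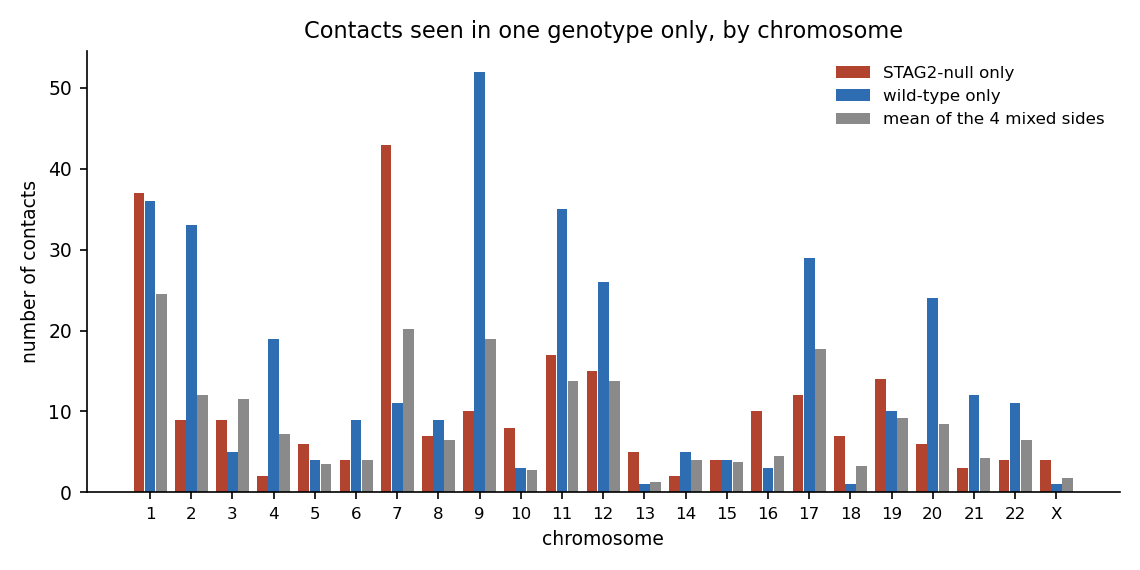
Number of contacts seen in STAG2-null libraries only (red), in wild-type libraries only (blue) and on average over the 4 mixed sides (grey), by chromosome. Chromosome 7 holds 43 against 11 and chromosome 9 holds 10 against 52.

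Whole chromosomes moved with these counts. Chromosome 7 held 10.8% and 10.7% of all PETs of STAG2-null libraries and 8.95% and 8.998% of wild-type libraries, while chromosome 9 held 7.83% and 7.23% against 9.30% and 9.28%. Over 23 chromosomes, the log2 ratio of these shares and the log2 ratio of the contact counts had r = 0.82 and rho = 0.81, and r = 0.75 without chromosomes 4 and 9. The points share the 4 libraries and the contacts are part of the PETs, so this is a description. Scaling each chromosome to its smallest library total before the rule left 48 and 83 contacts, with 3.61% of the wild-type direction on chromosome 9 and 18.8% of the STAG2-null direction on chromosome 7. Under this scaling a count at the minimum falls below it in every library with a larger total on that chromosome. The cuts thus differ between libraries and chromosomes, so these shares do not show what evening out the chromosome totals leaves. Copy number was not measured here, and its part in the chromosome counts was not tested.

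The excess over mixing was present without these chromosomes. Without 7 and 9 there were 185 and 280 contacts, a sum of 465 against 336 and 321 for the mixes. On the 10 chromosomes whose shares lay within 0.1 of each other on the log2 scale, there were 115 and 152, a sum of 267 against 177 and 197.

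The windows of 1 Mb with the most contacts lay on chromosomes 9 and 1 in the wild-type direction. Windows of 1 Mb with 3 or more contacts numbered 21 of 248 occupied windows in the wild-type direction and 4 of 204 in the STAG2-null direction, and the former has more contacts in all, so the numbers are not set against each other. The window from 139 to 140 Mb of chromosome 9 held 8 wild-type contacts and 4 mixed pairs. The windows from 132, 137 and 136 Mb of chromosome 9 held 6, 6 and 5, beside 7, 9 and 1 mixed pairs. In the window from 139 Mb the STAG2-null libraries had 3560 and 2870 PETs in all, and the wild-type libraries 4637 and 5229. Off chromosome 9, the window from 201 to 202 Mb of chromosome 1, with both CSRP1 contacts, held 6 wild-type contacts and 3 mixed pairs. Its libraries were closer in all PETs, at 2981 and 2908 against 3073 and 3602. No STAG2-null window held more than 3. These were the windows from 30 Mb of chromosome 1, from 1 and 129 Mb of chromosome 7 and from 90 Mb of chromosome 9, and the last held 3 wild-type contacts as well.

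The anchors of the contacts leaned the same way in their other pairs. Other pairs of the same anchors took a larger share of PETs in the contact's own genotype for 170 of 238 STAG2-null contacts (71.4%) and 253 of 343 wild-type contacts (73.8%). The share was 55.1% to 56.2% on the 4 mixed sides. The median log2 ratio of own over other genotype was 0.22 and 0.19, beside 0.025 to 0.034 on the mixed sides. These pairs come from the same libraries as the rule, so they are no independent support. Among the 18 contacts with a gene in each direction, 14 and 15 leaned to their own genotype.

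**Figure D5:**
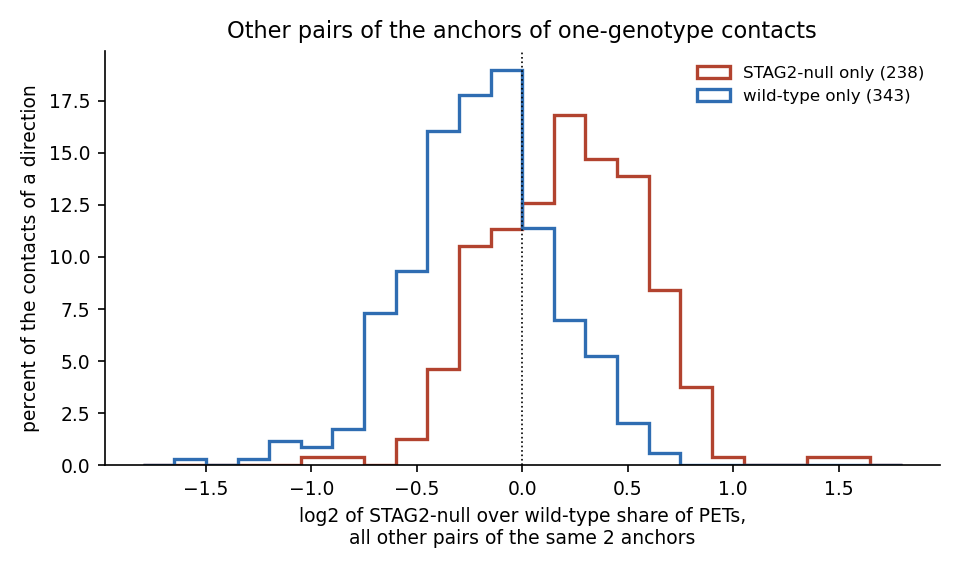
Distribution over contacts of the log2 ratio of STAG2-null to wild-type share of PETs in all other pairs of the same anchors, for both directions. The curves overlap widely, with the ratio above 0 for 71.4% of STAG2-null contacts and below 0 for 73.8% of wild-type contacts.

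Absence from the other genotype held for the exact anchors and rarely for the neighbourhood. A pair with both anchors within 20 kb of those of the contact had a PET in the other genotype for 214 of 238 STAG2-null contacts (89.9%) and 318 of 343 wild-type contacts (92.7%). On the mixed sides this was 90.9% to 93.7%. Per library total, the neighbouring pairs held 1.16 and 1.20 times as many PETs in the contact's own genotype, beside 0.999 to 1.04 on the mixed sides. At MEIS1 the neighbourhood was nearly empty, with 1 PET in STAG2-null and 3 in wild-type libraries outside the contact. At KLF16 and REXO1 it held 21 and 20, and at MSX1 it held 15 and 57. When anchors within 5 kb were merged, 211 of the 238 could be followed as a pair and 66 of them (31.3%) were still at 0 in wild-type libraries. Of the 343, 308 could be followed and 78 (25.3%) were still at 0 in STAG2-null libraries.

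The authors' deposited table of 22680 high-confidence loops holds 16 of the 238 STAG2-null contacts (6.72%) and 14 of the 343 wild-type contacts (4.08%). It also holds 32 of the 814 mixed pairs (3.93%), 0.169% of all pairs with 6 to 9 PETs and 25.7% of all pairs with 6 or more. Its smallest loop has 8 PETs in all, so a contact of 6 or 7 PETs, which 156 and 236 are, has no counterpart there. The 30 contacts are all the loops of that table with a genotype at 0. The authors' deposited table of 650 differential loops holds 8 (3.36%) and 7 (2.04%) contacts and 0 mixed pairs. It holds 0.737% of all pairs with 6 or more PETs, and its smallest loop has 11 PETs. The table compares the same genotypes in the same libraries as the rule, and a mixed pair has PETs in both genotypes. Its overlap and p-values are therefore no independent support. Its adjusted p-values, from independent hypothesis weighting, ran from 0.000986 at MEIS1 to 0.0285 at ARFGEF2 and CYP27B1 for the 8. For the 7 they ran from 0.00731 for the 55.3-kb pair on chromosome 4 to 0.0424 for the 182-kb pair on chromosome 12.

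In the authors' deposited table of loops that differ, 54 of 476 anchor ends of STAG2-null contacts and 73 of 686 of wild-type contacts are listed. Some of the listed ends carry no flag. Of the 54, 33 are flagged for CTCF, 16 for FLI1, 43 for H3K27ac and 21 as promoters. Of the 73, 43 are flagged for CTCF, 7 for FLI1, 49 for H3K27ac and 31 as promoters. Over all 1134 anchors of that table the shares are 48.3%, 15.2%, 57.8% and 28.7%. Flags are known only for anchors of loops that were called different between these libraries. The remaining 193 STAG2-null contacts (81.1%) and 282 wild-type contacts (82.2%) have no anchor in the table.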

How the data were processed

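A673 cells were profiled by SMC1 HiChIP, with 2 libraries per genotype. The authors deposited, per library, a count of PETs and a p-value for every anchor pair with a PET. The submitters' processing notes name HiC-Pro and hg19. Settings of the loop caller were not given in the sources used here. Tables of high-confidence and differential loops, with counts, p-values, log2 fold changes and flags per the file headers, were deposited too. Their count columns name a genotype and not a library, so these columns give no PETs of a library here.

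The 4 files were joined on both anchors with absent pairs at 0, in pandas 2.3.3. Length is the distance between anchor midpoints. A gene was placed where the deposited table flags one anchor of a loop as its promoter. Neighbouring pairs have both midpoints within 20 kb. Library shares are PETs over the library total, and 0.5 was added to both counts in ratios over chromosomes. The selection was checked on simulated data. Wilson and order-statistic intervals have a confidence of 95% and cover counting error only. Folds over the floor of 3 PETs take the counts of the contact's own genotype as exact.

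The members and lists were chosen with earlier results of these data known. Named contacts are, per direction, the 10 with the most PETs, up to 15 with a gene at an anchor, those of listed genes, and the 5 windows of 1 Mb with the most contacts. PTGER1, UBAC1, NRARP, the shorter TSKU contact, the anchors of both directions and the 3 promoters with a motif fall outside this rule and were chosen after their values were seen. Alternatives changed the minimum of PETs, the meaning of absence, the scaling, the anchors, the length and the libraries used. The hg19 genome and annotation were not used here, so no sequence is given for anchors themselves. Some listed genes are not reported here.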

Additional observations from a re-analysis of the deposited data

How the results depend on the processing

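Contacts are counts at a minimum, so their numbers move with every setting of it. Values are given as STAG2-null direction, wild-type direction and mean mixed side. With 2 PETs in both libraries they were 2078, 2648 and 2072.75, with 4 PETs 41, 58 and 27.25, and with 5 PETs 13, 8 and 5.5. With 6 PETs summed over the genotype and no minimum per library they were 585, 712 and 531.25. With at most 1 PET in the other genotype they were 933, 1095 and 802. Scaling PETs to the smallest library left 41, 149 and 43.75, and scaling each chromosome left 48, 83 and 44. Under both, a count of 3 in a deeper library falls below the minimum. The cuts are then unequal between sides, so these values do not compare the directions. A deposited p under 0.05 in both libraries left 87, 103 and 67. Both directions summed exceeded both mixes at minimums of 2 to 5 PETs. Merged anchors, pairs of 20 kb or more and the count without chromosomes 7 and 9, which was chosen after seeing the data, moved no number by over 1.5 times.

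The median length of the STAG2-null direction was 99.6, 27.7 and 128 kb with minimums of 2, 4 and 5 PETs. It was 27.7 and 36.4 kb under library and chromosome scaling, 126 kb with merged anchors, 275 kb under the deposited p and 113 kb for pairs of 20 kb or more. That of the wild-type direction was 85.5 kb with 2 PETs, 112 kb with merged anchors, 196 kb under the deposited p and 87.2 kb for pairs of 20 kb or more. The share of the STAG2-null direction on chromosome 7 was 13.4% with 2 PETs and 11.5% under the deposited p. The share of the wild-type direction on chromosome 9 was 11.4% with 2 PETs, 0% of 8 contacts with 5 PETs, 3.61% under chromosome scaling and 19.4% under the deposited p. For these medians and shares the cause was not tested, and those under scaling rest on the unequal cuts stated above.

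Leaving out a library loosens the minimum for the genotype that loses it and the absence asked of it for the other direction. The numbers thus rose in both directions, and the larger was that of the genotype that lost a library. The STAG2-null direction ran from 1140 to 3708 and the wild-type direction from 1449 to 4841. Median lengths ran from 30.8 to 142 kb and from 46.5 to 110 kb. The shares on chromosomes 7 and 9 ran from 13.3% to 17.5% and from 10.4% to 15.5%. Mixed sides have no such value with 3 libraries. No paired analysis was possible because the contacts were counted by a rule with no fit, and nothing in the labels says that libraries of the same number share a culture or day. Depth limits all of this: a count of 0 over both libraries of a genotype allows up to 3 PETs over both.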
